A study of Mus musculus with 6 samples.

Results

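The genes described here are the cytosolic and mitochondrial heat shock chaperones of mouse marrow myeloid cells. They were taken by symbol, as the Dnaja, Dnajb and Dnajc, Hspa, Hspb, Hspd, Hspe, Hsph and Hsp90 families and the CCT chaperonin subunits, leaving out the endoplasmic reticulum members Hspa5, Hsp90b1, Dnajb9, Dnajb11 and Dnajc3. A gene needed a probe set that the array annotation gives to that symbol alone, which 76 of them had among 18194 genes on the array, with 188 probe sets between them. Hsp90ab1 and Dnajc19 had no such probe set and were not analysed here. Not all 76 fit the compartment in the name. Hspa13, Dnajc1, Dnajc10 and Dnajc25 are known as endoplasmic reticulum proteins. Dnajb14 and Dnajc14 sit in the endoplasmic reticulum membrane, and Hspb11 is better known as a subunit of the intraflagellar transport complex. They were kept because the choice was by symbol.

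Affymetrix expression arrays had been run on 3 GFP_plus and 3 GFP_min samples, all from female HdcGFP mice (C57BL/6 background), in which green fluorescence reports on Hdc, the histidine decarboxylase gene. The marrow came from femur and tibia. Cells were sorted as CD11b+Gr1+ with a positive or high reporter signal (GFP_plus) or a negative or low one (GFP_min). No age is labelled, and nothing says that replicates a, b and c are different mice. The p-values therefore rest on the scatter among these samples alone, and that scatter may be technical. GFP_min replicate b carries a free-text description that reads Gr1-, against the Gr1+ of its sorted-cell label, so counts are also given without it.

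Heat shock chaperones bind unfolded or partly folded proteins. Hsp70 proteins cycle on and off their clients with ATP, J proteins bring the client and trigger the ATP step, and exchange factors such as Hsp110 release it. Hsp90 acts later on kinases and receptors, and the ring-shaped chaperonins, CCT in the cytosol and Hsp60 with Hsp10 in the mitochondrial matrix, enclose a client while it folds. Many of these genes are switched on by heat shock factor 1, which binds repeated inverted GAA units in their promoters.

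On the deposited scale most chaperone transcripts that differed were lower in GFP_plus cells, whereas with centring on ribosomal protein genes most that differed were higher. With that centring most of all the genes that differed were higher too. Each gene stands at its brightest probe set, and 57 of the 76 were bright enough to test, meaning above the array's median signal on 3 or more of the 6 arrays. At a limma adjusted p under 0.05, 4 of the 57 were higher in GFP_plus (7.02%, beside 21.0% of all 10810 genes tested) and 30 were lower (52.6%, beside 27.6%), of which Dnajc25 entered the test through its GFP_min arrays alone. In either direction 59.6% of the tested chaperones passed, beside 48.7% of all genes. Without GFP_min replicate b, 5 chaperones were higher and 29 lower. The difference lay below 0 in 40 of the 57, beside 49.7% of all genes. The median difference, GFP_plus minus GFP_min, was −0.28 over the tested chaperones and 0.0023 over all genes, on the deposited log2 scale. The largest falls were Hspb11 (−2.10) and Hsph1 (−2.08), and the largest rise was Dnajc14 (0.83). Of the 57 chaperones, 5 passed with a difference of at least 1 log2, all lower. That share is near the 8.75% of all genes that were lower by that much, and 1.52% of all genes were higher by that much. In 38 of the 57 the arrays of the groups did not overlap, including all 34 that passed, against 59.3% of all genes. The remaining 19 genes were too dim to test, 16 of them below the median on all 6 arrays, among them the testis-associated J proteins Dnajb3, Dnajb7, Dnajb8 and Dnajb13.

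The sorted populations differed in more than the reporter. Hdc itself, on which the cells were sorted, was 12.01 ± 0.06 in GFP_plus and 11.19 ± 0.03 in GFP_min (log2, mean ± SD, n = 3 each). Monocyte markers were lower for 11 of 11 tested, with array means of 7.20 to 7.31 in GFP_plus and 11.82 to 11.89 in GFP_min, and no defining marker lay below the array medians in either group. Neutrophil markers were bright in both (13.74 to 13.82 in GFP_plus and 13.54 to 13.58 in GFP_min), with 5 of 11 higher and 0 lower. All 7 tested neutrophil precursor genes and 5 of 6 basophil and mast cell genes were higher. Both tested eosinophil markers and the 1 tested erythroid marker were higher, and among dendritic cell markers 1 of 5 was higher and 3 were lower. Cpa3, Fcer1a and the erythroid marker Car1 entered the test through their GFP_plus arrays alone, and the dendritic marker Cd209a through its GFP_min arrays alone. Such calls support nothing by themselves. Of 5 B cell markers 1 was lower, and of 4 T and NK cell markers 1 was higher and 1 lower. In bulk samples fewer cells of a type and less RNA per cell cannot be told apart, and the part of these markers in the chaperone differences was not tested. The signal gap between 3′ and 5′ probe sets, a sign of RNA quality, was 0.635 in GFP_plus and 0.315 in GFP_min for Gapdh (exact permutation p = 0.1, two-sided, the smallest that 3 against 3 arrays allow) and 0.868 in GFP_plus and 0.807 in GFP_min for beta-actin (exact permutation p = 0.2). Its part was not tested either. Array medians lay between 2.82 and 2.88, and arrays correlated at 0.9958 to 0.9975 within groups and 0.9782 to 0.9817 between them.

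**Figure D1:**
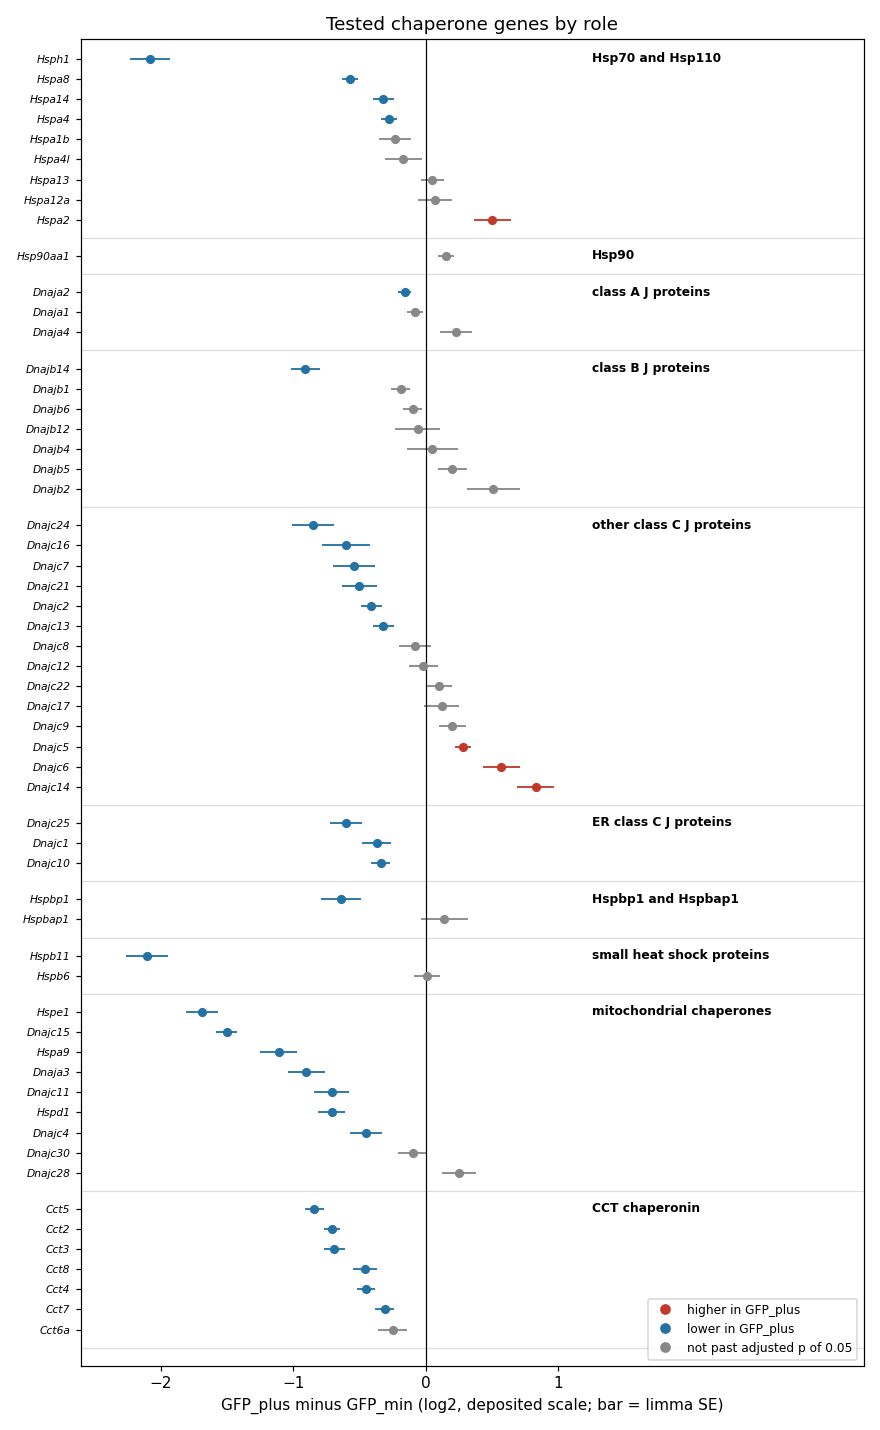
Difference between GFP_plus and GFP_min cells (log2, horizontal axis) for each of the 57 tested chaperone genes, one row per gene and grouped by role. Points are differences of means over 3 arrays each, bars are limma standard errors, and colours mark genes higher or lower in GFP_plus or not past an adjusted p of 0.05. On this deposited scale the mitochondrial and CCT groups lie almost wholly left of 0, though the CCT median turns to 0.08 with ribosomal centring, and class A and B J proteins other than Dnajb14 lie close to 0 or to its right.

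The binding units of heat shock factor 1 are shown here because they are the regulatory sequence these gene families are known for. RefSeq promoters of 300 bases on the mouse assembly GRCm38.p6 were found by gene ID for 62 of the 76 genes and searched for a pair of inverted units, GAANNTTC or TTCNNGAA, each of which reads the same on both strands. A pair was present in 20 of the 62 (32.3%), against 17.0% of 27025 genes with promoters in the same table. Runs of 3 units, GAANNTTCNNGAA or its reverse complement TTCNNGAANNTTC (each contains both pairs), were present in 4 of the 62 (6.45%), against 0.662% of all genes. Those 4 are Hsph1, Hspe1, Hspd1 and Dnajb6. Dnajb6 did not pass, and the other three were lower in GFP_plus. Their stretches are shown with matches in capitals. Hsph1 lies at chr5:149636266-149636565 on the minus strand, Hspe1 at chr1:55087898-55088197 on the plus strand and Dnajb6 at chr5:29735648-29735947 on the plus strand. For Hspd1, at chr1:55088049-55088086 on the minus strand, only the window around the match is printed. Hspd1 and Hspe1 are neighbours on chromosome 1, and their matches are the same stretch of DNA read on opposite strands.
Hsph1: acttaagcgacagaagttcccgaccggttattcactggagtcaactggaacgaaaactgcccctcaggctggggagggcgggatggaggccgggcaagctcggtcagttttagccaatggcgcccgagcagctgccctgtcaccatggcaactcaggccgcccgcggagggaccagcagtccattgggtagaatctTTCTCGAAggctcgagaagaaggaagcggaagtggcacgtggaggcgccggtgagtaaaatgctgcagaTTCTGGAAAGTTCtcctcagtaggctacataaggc
Hspe1: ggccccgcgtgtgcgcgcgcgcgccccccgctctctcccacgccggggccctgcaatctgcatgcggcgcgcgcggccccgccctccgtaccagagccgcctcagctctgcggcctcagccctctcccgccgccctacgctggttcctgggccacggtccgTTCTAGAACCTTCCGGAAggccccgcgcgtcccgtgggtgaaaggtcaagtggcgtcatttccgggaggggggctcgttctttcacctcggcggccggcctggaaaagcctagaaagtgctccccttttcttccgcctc
Hspd1: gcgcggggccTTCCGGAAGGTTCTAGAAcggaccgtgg
Dnajb6: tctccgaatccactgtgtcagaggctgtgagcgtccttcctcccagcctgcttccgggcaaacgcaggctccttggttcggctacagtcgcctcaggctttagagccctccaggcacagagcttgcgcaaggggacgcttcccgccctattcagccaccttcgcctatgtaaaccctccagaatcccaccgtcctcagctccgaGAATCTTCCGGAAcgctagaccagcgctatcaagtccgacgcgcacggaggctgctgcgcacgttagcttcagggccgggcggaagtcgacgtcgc

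A pair of units was found in 6 of 25 matched genes that were lower (24.0%), in 0 of 3 that were higher, in 7 of 18 that did not pass (38.9%) and in 7 of 16 that were too dim to test (43.8%). The windows below show a pair in Cct5 (chr15:31601863-31601890, minus strand), which was lower, in Dnaja1 (chr4:40722334-40722361, plus strand), which did not pass, and in the dim heat-inducible genes Hspa1b (chr17:34959325-34959352, minus strand) and Hspb1 (chr5:135887792-135887839, plus strand). The Hspa1a window on the same chromosome has the same letters as that of Hspa1b, its near-identical copy. A match describes letters in a window, and binding of the factor was not measured.
Cct5: cagcggccgaTTCCAGAAgctactctgc
Dnaja1: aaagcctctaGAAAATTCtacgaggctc
Hspa1b: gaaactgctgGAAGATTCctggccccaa
Hspb1: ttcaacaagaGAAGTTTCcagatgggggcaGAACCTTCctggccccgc

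Among the Hsp70 and Hsp110 genes, 9 of 12 were tested, 4 were lower and 1 was higher in GFP_plus, with a median difference of −0.23 (0.31 with ribosomal centring). Of all genes 27.6% were lower and 21.0% higher. Hsph1, the Hsp110 exchange factor that reloads Hsp70 with ATP, stood at 4.02, 4.03 and 3.64 on the GFP_plus arrays a, b and c, and at 5.86, 6.04 and 6.04 on the GFP_min arrays (deposited log2 values). Every GFP_plus array lay well below every GFP_min array. The difference was −2.08 (SE 0.15, limma adjusted p = 4.13e-06), a 4.24-fold lower signal. Its other probe set lay below the array medians on all GFP_plus arrays, so it gives no exact difference. Hspa8, the constitutive Hsc70 that also strips clathrin from vesicles, averaged 11.82 ± 0.07 in GFP_plus and 12.39 ± 0.08 in GFP_min (SD, n = 3 each), a difference of −0.57. Smaller falls passed for Hspa14 (−0.32), a ribosome-associated Hsp70, and Hspa4 (−0.28), another Hsp110 relative whose other tested probe sets reached −1.46. The 1 rise was Hspa2, a family member best known for its role in sperm formation. Hspa2 was at 4.36, 4.18 and 3.98 in GFP_plus and 3.73, 3.73 and 3.55 in GFP_min, without overlap (0.50, SE 0.14, adjusted p = 0.0142), and lost its call without GFP_plus a (0.41) or GFP_min c (0.45).

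The stress-inducible Hsp70 genes were dim. Hspa1a averaged 1.99 ± 0.07 in GFP_plus and 2.10 ± 0.28 in GFP_min and was not tested. Hspa1b averaged 2.92 ± 0.09 in GFP_plus and 3.15 ± 0.18 in GFP_min, close to the array medians (−0.23, adjusted p = 0.15), and 1 of its other probe sets lay below those medians on all GFP_plus arrays and above them on all GFP_min arrays. These copies share so much sequence that probe sets may not separate them. At their brightest probe sets Hspa13 (9.55 in GFP_plus and 9.50 in GFP_min), Hspa4l (−0.17) and Hspa12a (0.07) did not pass. Another probe set of each did, at −0.63 for Hspa13, 0.49 for Hspa4l and 0.41 for Hspa12a.

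Hsp90aa1, the inducible cytosolic Hsp90, was the 1 Hsp90 gene in the symbol choice with a probe set of its own. It stood at 11.18, 11.19 and 11.11 in GFP_plus and at 11.04, 10.92 and 11.06 in GFP_min. All GFP_plus arrays lay above all GFP_min arrays, but the gap was narrow and did not pass (0.15, SE 0.06, adjusted p = 0.0657). It passed with array weights (0.14), median centring (0.35) and ribosomal centring (0.68), and turned with poly-A centring (−0.30).

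**Figure D2:**
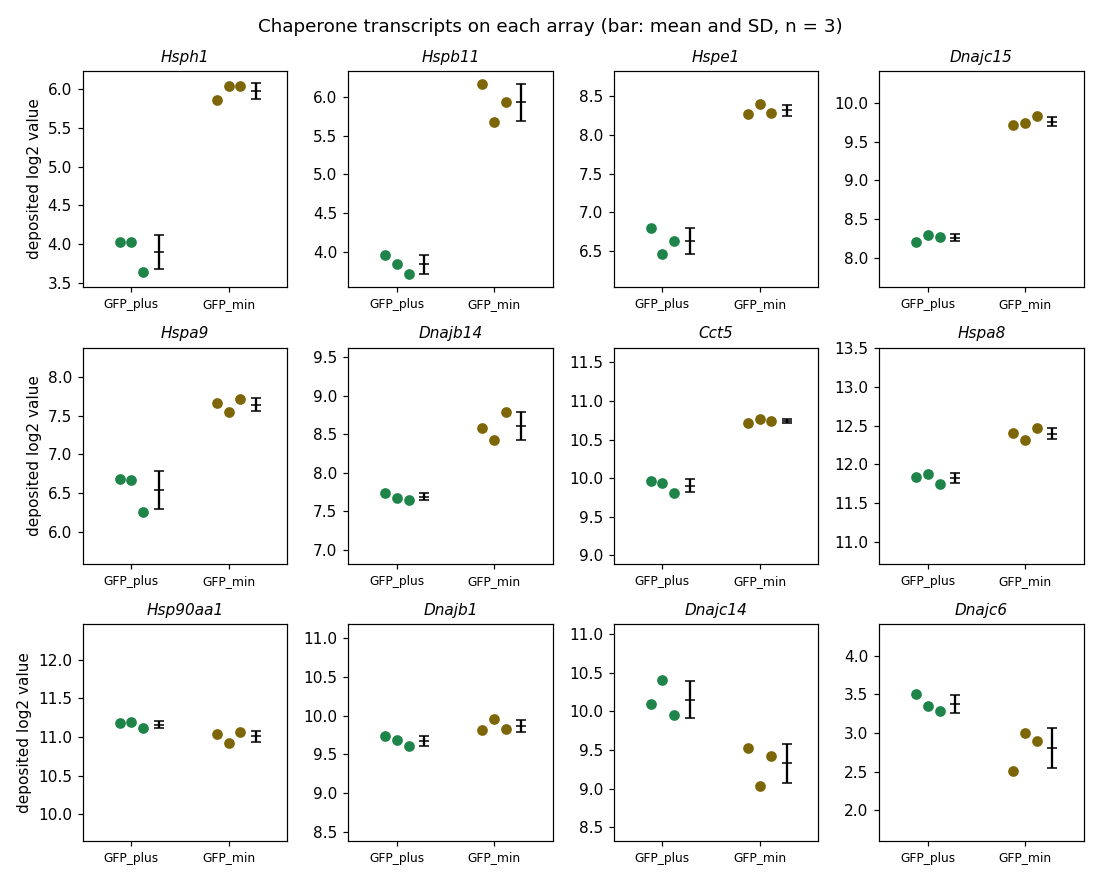
Deposited log2 values (vertical axis, all panels spanning the same number of log2 units) of 12 chaperone genes on the 3 GFP_plus arrays and the 3 GFP_min arrays, with mean and SD beside the points. Hsph1, Hspb11, Hspe1 and Dnajc15 show the widest gaps, GFP_plus below GFP_min, whereas Dnajb1 and Hsp90aa1 lie close together and Dnajc14 and Dnajc6 are higher in GFP_plus.

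The J proteins, 41 genes of which 33 were tested, included 3 higher and 15 lower. Of all genes 21.0% were higher and 27.6% lower. The median of the J proteins was −0.10, against 0.10 with median centring and 0.43 with ribosomal centring. Class A members Dnaja1 and Dnaja2, the general cytosolic partners of Hsc70, differed little at their brightest probe sets. Dnaja2 was at 10.88, 10.86 and 10.83 in GFP_plus and 10.97, 11.02 and 11.05 in GFP_min, without overlap (−0.16, SE 0.05, adjusted p = 0.0379). Leaving out any single array ended the call, with differences of −0.18 to −0.14, and 2 other probe sets of Dnaja2 passed in opposite directions, the higher one at 0.53. Dnaja1 was 10.71 ± 0.03 in GFP_plus and 10.79 ± 0.03 in GFP_min and did not pass, while both its other probe sets were higher and passed (0.30 and 1.12). Dnaja4, at 3.19, 3.06 and 3.27 in GFP_plus and 2.81, 3.18 and 2.85 in GFP_min, overlapped between the groups and did not pass (0.23, adjusted p = 0.169). It passed without GFP_min b (0.34), with array weights (0.29), with median centring (0.43) and with ribosomal centring (0.76).

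Of 11 class B genes 7 were tested, with a median of −0.06, and 1 passed, where 48.7% of all genes did. That gene was Dnajb14, which sits in the endoplasmic reticulum membrane with its J domain facing the cytosol. It read 7.74, 7.68 and 7.65 in GFP_plus and 8.58, 8.43 and 8.79 in GFP_min, with a clear gap between the groups (−0.91, SE 0.11, adjusted p = 0.000117). A different probe set of Dnajb14 gave −0.92. Its close relative Dnajb12 was 3.79 ± 0.22 in GFP_plus and 3.86 ± 0.26 in GFP_min and did not pass. Dnajb1, the main heat-inducible J protein, was 9.67 ± 0.06 in GFP_plus and 9.86 ± 0.08 in GFP_min (−0.19, adjusted p = 0.0645). Dnajb6, which holds back aggregation and has 3 units in its promoter, was 10.45 ± 0.07 in GFP_plus and 10.56 ± 0.08 in GFP_min at its brightest probe set, but 2 others were higher and passed (0.48 and 0.55). Dnajb2 (0.51, adjusted p = 0.0596) passed without GFP_plus c (0.71), and Dnajb4 (0.05) and Dnajb5 (0.20) did not pass.

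Class C, the most varied class, held 3 of the 4 rises. Dnajc14, an endoplasmic reticulum membrane protein that helps the dopamine D1 receptor reach the surface, was at 10.10, 10.41 and 9.95 in GFP_plus and 9.52, 9.04 and 9.42 in GFP_min. The groups did not overlap and the difference was 0.83 (SE 0.14, adjusted p = 0.00108). Its other probe sets gave 0.82, which passed, and 0.16, which did not. Dnajc6, auxilin, which pairs with Hsc70 to uncoat clathrin, was at 3.50, 3.35 and 3.28 in GFP_plus and 2.51, 3.00 and 2.90 in GFP_min (0.57, SE 0.14, adjusted p = 0.00772). Its GFP_min values lay close to the array medians, that of GFP_min a below its own, and no other Dnajc6 probe set was bright enough to test. Dnajc5, the cysteine string protein of secretory vesicles, was at 10.63, 10.59 and 10.73 in GFP_plus and 10.36, 10.36 and 10.40 in GFP_min (0.28, SE 0.06, adjusted p = 0.0051). Neither Dnajc6 nor Dnajc5 overlapped between the groups. The 4 other tested probe sets of Dnajc5 lay between 0.08 and 0.53, and 1 of them passed.

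The 14 tested class C genes grouped neither as mitochondrial nor with Dnajc1, Dnajc10 and Dnajc25 include the 3 rises. Of these 14, 6 were lower, where 27.6% of all genes were, and the median was −0.05 (0.15 with median centring). Dnajc24, an enzyme partner in making diphthamide on elongation factor 2, was at 5.16, 5.28 and 4.80 in GFP_plus and 5.84, 6.11 and 5.84 in GFP_min. The groups lay apart (−0.85, SE 0.16, adjusted p = 0.00214), but the other tested probe set of Dnajc24 gave −0.12 and did not pass. The other lower genes were Dnajc16 (−0.60), Dnajc7 (−0.54), which binds both Hsp70 and Hsp90, Dnajc21 (−0.50), which acts in ribosome assembly, Dnajc2 (−0.41), the ribosome-bound partner of Hspa14, and Dnajc13 (−0.32), an endosomal J protein. Dnajc16 lost its call without GFP_plus b (−0.57), GFP_plus c (−0.57) or GFP_min b (−0.41), and Dnajc7 without GFP_plus c (−0.45). The 5 that did not pass lay between −0.08 for Dnajc8 and 0.20 for Dnajc9, a histone-binding J protein. Dnajc1, Dnajc10 and Dnajc25, grouped as class C J proteins of the endoplasmic reticulum, had a median of −0.37 (0.17 with ribosomal centring). Dnajc14, of the endoplasmic reticulum membrane, was higher (0.83) and was not in that group. Dnajc25 was at 2.83, 2.80 and 2.70 in GFP_plus, below the median of each of those arrays, and at 3.52, 3.13 and 3.47 in GFP_min, so its signal was at least 1.43-fold lower. It met the brightness filter through the GFP_min arrays alone, and its call supports nothing by itself. Dnajc1 (−0.37), which lost its call without GFP_plus b (−0.32) or GFP_min a (−0.34), and the disulphide reductase Dnajc10 (−0.34) were lower.

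Hspbp1, which binds Hsp70 and promotes nucleotide release, was at 2.74, 2.63 and 2.91 in GFP_plus and at 3.22, 3.74 and 3.23 in GFP_min (−0.64, SE 0.15, adjusted p = 0.00727). Its arrays did not overlap between the groups but lay close to the array medians. Hspbap1 was 4.68 ± 0.24 in GFP_plus and 4.54 ± 0.26 in GFP_min and did not pass.

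Small heat shock proteins, which hold unfolded clients without ATP, were mostly dim: 2 of 8 were tested. Hspb11 was at 3.95, 3.84 and 3.71 in GFP_plus and at 6.17, 5.68 and 5.94 in GFP_min. No array of one group came near the other (−2.10, SE 0.16, adjusted p = 5.35e-06, 4.27-fold lower). Hspb6 did not pass (2.87 ± 0.10 in GFP_plus and 2.86 ± 0.02 in GFP_min, adjusted p = 0.945). Hspb1, the heat-inducible Hsp27 homologue, was 2.82 ± 0.10 in GFP_plus and 2.65 ± 0.26 in GFP_min and was not tested.

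Mitochondrial chaperones gave the lowest median of the larger groups. All 9 were tested, 7 were lower and 0 higher, where 27.6% of all genes were lower and 21.0% higher, and the median was −0.71. With ribosomal centring 4 were lower and 2 higher, with a median of −0.18, where 11.2% of all genes were lower and 68.6% higher. Hspe1, the Hsp10 lid of the matrix chaperonin, was at 6.79, 6.46 and 6.63 in GFP_plus and 8.27, 8.40 and 8.28 in GFP_min. The gap was wide in every array (−1.69, SE 0.12, adjusted p = 2.58e-06, 3.23-fold lower), and the other probe set gave −1.92. Hspd1, the Hsp60 barrel that Hspe1 caps and with which it shares the promoter stretch printed above, was 8.90 ± 0.15 in GFP_plus and 9.61 ± 0.14 in GFP_min, a smaller fall of −0.71 (SE 0.10, adjusted p = 0.000373). Hspa9, mortalin, the matrix Hsp70 that pulls proteins through the inner membrane, was at 6.68, 6.67 and 6.25 in GFP_plus and 7.66, 7.55 and 7.71 in GFP_min. Its arrays lay apart (−1.11, SE 0.14, adjusted p = 0.000149, 2.16-fold lower), with −1.10 at another probe set.

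The J protein Dnajc15, a regulator of the import motor and of complex I, had the smallest adjusted p of the mitochondrial group. It was at 8.21, 8.30 and 8.27 in GFP_plus and 9.72, 9.74 and 9.83 in GFP_min, tight within each group and far apart between them (−1.50, SE 0.08, adjusted p = 3.91e-07, 2.83-fold lower). Dnaja3, the matrix J partner of mortalin, was lower by −0.90, though its other tested probe set gave 0.02. Dnajc11, which associates with the cristae-organising complex, gave −0.71 and Dnajc4 −0.45. Dnajc30 (7.62 in GFP_plus and 7.71 in GFP_min) and Dnajc28 (3.65 in GFP_plus and 3.40 in GFP_min) did not pass.

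The CCT chaperonin folds actin and tubulin, and 6 of its 7 tested subunits were lower, where 27.6% of all genes were. Their median was −0.46, which ribosomal centring turned to 0.08. Cct5 was at 9.96, 9.94 and 9.81 in GFP_plus and 10.72, 10.77 and 10.74 in GFP_min, with no overlap (−0.84, SE 0.07, adjusted p = 6.06e-06, 1.79-fold lower). Cct2 (−0.71) and Cct3 (−0.69) were lower by similar amounts, and Cct8 (−0.46), Cct4 (−0.45) and Cct7 (−0.31) by less. Cct6a overlapped between the groups and did not pass (−0.25, adjusted p = 0.0777). A different Cct6a probe set did (−0.70, adjusted p = 0.000672), and the brightest one passed without GFP_plus b (−0.36) or GFP_min b (−0.34). Cct6b and Cct8l1, the testis-associated paralogues, were below the array medians on all 6 arrays.

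Genes that work with these chaperones but fall outside the symbol choice were counted by list, on the deposited scale unless another is named. The 27 tested Hsp70 and Hsp90 co-chaperones included 3 that were higher and 8 that were lower, where 21.0% of all genes were higher and 27.6% lower, and their median was −0.12 (0.08 with median centring). Bag3, an exchange factor that steers clients to autophagy, was at 3.35, 3.24 and 3.34 in GFP_plus and 4.97, 4.87 and 5.16 in GFP_min (−1.69, adjusted p = 5.72e-06). Bag5 gave −1.39, and the myosin chaperone Unc45a was higher (0.92). Of 12 tested genes listed as chaperonin partners and prefoldin, 7 were lower and 0 higher, with a median of −0.69, led by Pdrg1 (−1.71), Uri1 (−1.36) and Pfdn2 (−0.90). With median centring 3 of the 12 were higher and 7 lower, where 41.4% of all genes were higher and 19.3% lower. With ribosomal centring the median was −0.16, with 5 higher and 2 lower, where 68.6% of all genes were higher and 11.2% lower. The CCT subunit Tcp1 is counted in that list and among its lower genes. Named here outside the naming rule because its symbol escapes the family pattern, it was 9.85 ± 0.16 in GFP_plus and 10.64 ± 0.20 in GFP_min (−0.79). Of 13 mitochondrial partners and proteases, 5 were lower and 0 higher, with a median of −0.25 (0.28 with ribosomal centring). Hscb, the J protein that passes iron-sulphur clusters to mortalin, gave −1.60, Timm44, which anchors mortalin at the import channel, −0.65, and the exchange factor Grpel2 −0.57.

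Cell sorting can itself induce stress transcripts, so a list of immediate early genes is set beside the chaperones. Of 14 tested, 11 were higher and 1 was lower in GFP_plus, where 21.0% of all genes were higher and 27.6% lower. The median of the 14 was 0.69. With poly-A centring their median was 0.24, with 4 higher and 3 lower, where 3.21% of all genes were higher and 59.8% lower. Junb was higher by 2.13, Socs3 by 1.42 and Zfp36 by 0.93, while Atf3 was the member that fell (−0.55). The 7 tested members of the 9 cytosolic heat-inducible chaperones, a grouping made after their values were seen, had 0 higher, 2 lower (Hsph1 and Hspa8) and a median of −0.19. That share of lower genes is near the 27.6% of all genes. Whether stress in handling plays a part in either was not tested.

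How far the chaperones fell depended on the scale. Relative to the deposited values, centring each array on the median of the tested probe sets added 0.2021 to every difference, centring on 41 cytosolic ribosomal protein genes added 0.5356, and centring on 22 bacterial poly-A control probe sets added −0.446. The median of the tested chaperones was −0.27 after quantile normalization, −0.08 with median centring, 0.26 with ribosomal centring and −0.72 with poly-A centring. With median centring 12 were higher and 18 lower, where 41.4% of all genes were higher and 19.3% lower. With ribosomal centring 33 were higher and 9 lower, where 68.6% of all genes were higher and 11.2% lower. With poly-A centring 1 was higher and 46 lower, where 3.21% of all genes were higher and 59.8% lower. The mitochondrial median stayed below 0 under every scaling run (−0.71 after quantile normalization, −0.51 with median centring, −0.18 with ribosomal centring and −1.16 with poly-A centring). The CCT median turned to 0.08 with ribosomal centring, and the Hsp70 and Hsp110 median to 0.31. Class A and class B J proteins had positive medians with median centring (0.12 and 0.14), and class B also after quantile normalization (0.06). The median of all genes was 0.05 after quantile normalization, 0.2 with median centring, 0.54 with ribosomal centring and −0.44 with poly-A centring.

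Single genes can be read across the scalings. Lower calls held under quantile normalization and all the centrings for 9 genes: Hsph1, Hspb11, Hspe1, Dnajc15, Hspa9, Dnaja3, Dnajb14, Cct2 and Cct5. They also held without any 1 array and under the other settings of filter, variance and probe set that were run. Their smallest margin was under ribosomal centring, where Cct2 stood at −0.17 (adjusted p = 0.0131), Cct5 at −0.30, and Dnaja3 and Dnajb14 at −0.37 each, so a somewhat larger shift would turn Cct2. Of the 4 higher calls, Dnajc14 held under all of these, whereas Dnajc6 and Hspa2 lost their calls and Dnajc5 turned (−0.17) with poly-A centring. With ribosomal centring 12 of the 34 called genes changed sign, Hspa4, Hspa14, Cct4, Cct7 and Cct8 among them, and 9 others, including Hspa8, Hspd1 and Cct3, lost their call.

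**Figure D3:**
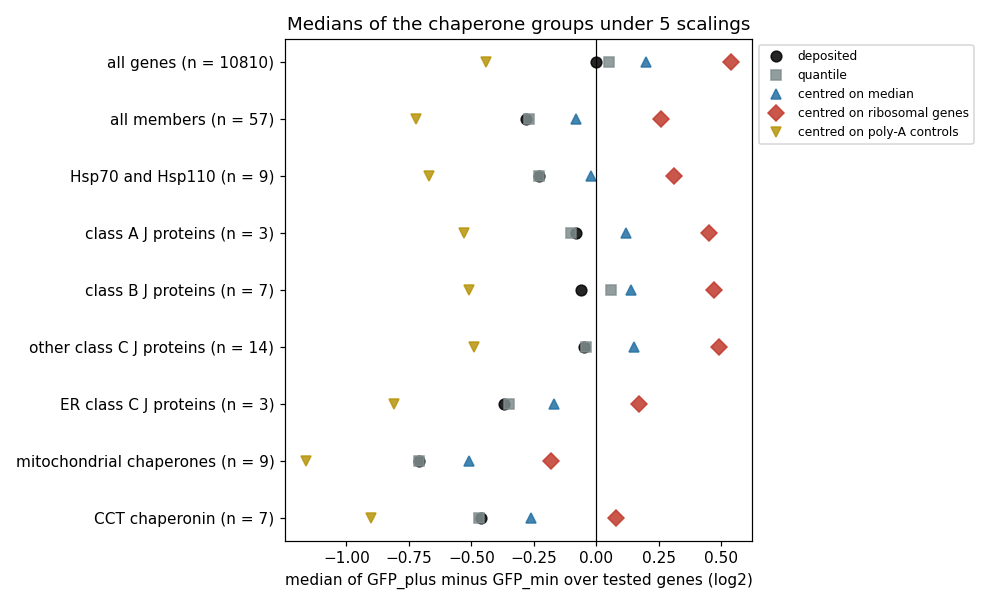
Median difference between GFP_plus and GFP_min cells (log2, horizontal axis) over the tested genes of each chaperone group, of all chaperones and of all genes, under the deposited scale and 4 other scalings (marker shape and colour). The mitochondrial group lies left of 0 under all 5 scalings, from −1.16 to −0.18, while the median of all chaperones spans −0.72 to 0.26.

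Different probe sets of a gene did not always read alike. Of the 57 tested genes, 34 had more than 1 tested probe set, which made 68 further probe sets, and 46 of these had the sign of the brightest. Of the 22 called genes with several, 15 had another probe set called the same way and 1, Dnaja2, had one called the opposite way as well. In 7 genes that did not pass, another probe set did. For Hsph1 and Hspa1b that other probe set was tested through the GFP_min arrays alone, so its call supports nothing by itself. When the mean of a gene's probe sets was used, Dnaja1 turned to 0.45 and passed, Hspa1b passed as lower (−0.42, a mean that includes that probe set), and Hspa14 (−0.07) and Dnajc2 (−0.06) no longer passed.

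**Figure D4:**
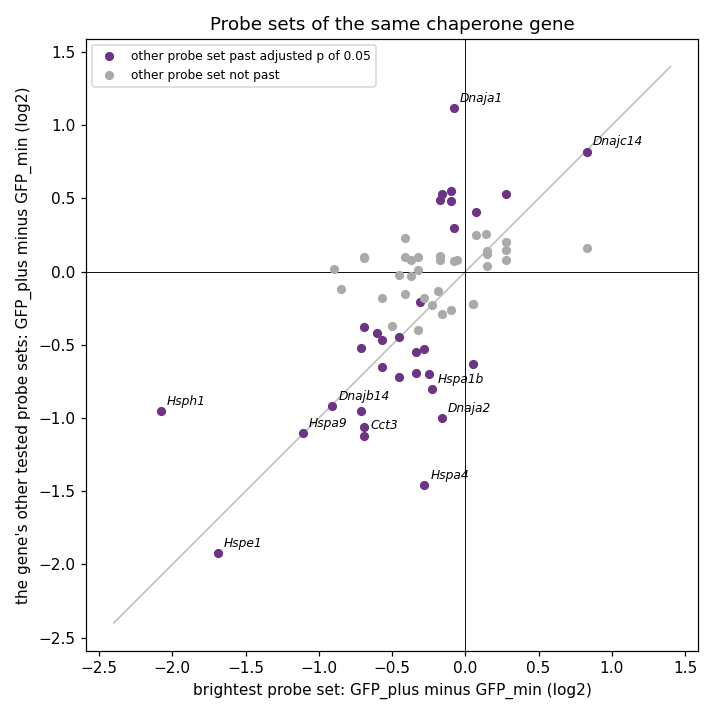
Difference between GFP_plus and GFP_min cells (log2) at the brightest probe set of a chaperone gene (horizontal axis) against each of its other tested probe sets (vertical axis), with the diagonal marking equal values and colour marking other probe sets past an adjusted p of 0.05. Of the 68 other probe sets, 46 share the sign of the brightest. Dnaja1, Dnaja2, Dnaja3, Hspa4 and Hsph1 are among the genes with a probe set far from the diagonal.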

How the data were processed

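Biotin-labelled RNA was hybridised to Affymetrix arrays. The deposited log2 values, 45101 probe sets on 6 arrays, were made by the authors with GCRMA, per the submitters' processing notes, which as used here give no version or settings. That they are log2 was read from their range. Probe sets were named from the platform annotation, in which 34958 had 1 gene symbol. Leaving out 64 control probe sets, 22956 exceeded the median of their own array on at least 3 arrays and were tested, GFP_plus minus GFP_min, with limma 3.58.1 in R 4.3.3 (lmFit, eBayes with an intensity trend, two-sided, Benjamini-Hochberg over all tested probe sets, threshold 0.05). The fit was also run on simulated data without a shift of scale between the groups, so that run cannot bear on the choice of scale. Where a group lay below the medians of all its arrays, the fold is a bound against those medians. No depth exists for array values, and the number of arrays limits their precision.

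The members, role lists, partner lists and marker lists were chosen with earlier results of these data known. Members given with every array value are, in each role, the one with the smallest adjusted p and the one with the largest difference, and up to 6 largest rises and falls among called genes without overlap. Of each partner list, up to 3 called genes with the largest difference are named. Others were named after their values were seen. Other settings tried were the filter, variance model, weighting of arrays, scaling, choice of probe set, the replicate letter as a block, leaving out each array and a size threshold of 1 log2. A ribosomal centring over all 81 probe sets of those genes was added after seeing the data. Promoters were RefSeq's, on GRCm38.p6. Plots used matplotlib 3.10.9 under Python 3.11.15.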

Additional observations from a re-analysis of the deposited data

How the results depend on the processing

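Of all genes, 2275 were higher and 2988 lower as reported, and 4472 were higher with median centring, 7412 with ribosomal centring (1206 lower), 7371 with ribosomal centring over all probe sets (1209 lower), 347 with poly-A centring (6460 lower) and 164 at a difference of at least 1 log2 (946 lower). Of the chaperones, 4 were higher and 30 lower as reported. With array weights 9 were higher, with median centring 12 were higher and 18 lower, with either ribosomal centring 33 were higher and 9 lower, with poly-A centring 1 was higher and 46 lower, and at a difference of at least 1 log2 0 were higher and 5 lower. The chaperone median of −0.28 was −0.10 over all 76 genes without the filter, −0.08 with median centring and −0.72 with poly-A centring, and turned to 0.26 with ribosomal centring and 0.25 over all ribosomal probe sets. A shift added to every difference accounts for the centred differences and medians by construction. Each array was centred on its own, so the scatter behind the adjusted p and the counts changed as well. The cause of the other changes was not tested. Dnaja2 turned to 0.04 with median, 0.38 with ribosomal and 0.37 with the other ribosomal centring, and with poly-A centring Dnajc5 turned to −0.17 and Hsp90aa1 to −0.30 (adjusted p = 0.0347). Leaving out each array in turn gave 1747 to 2084 genes higher and 2676 to 2772 lower, 3 to 5 chaperones higher and 27 to 29 lower, and a chaperone median of −0.33 to −0.26. Same-letter deviations from the group means correlated at −0.303 to −0.182, and different-letter ones at −0.015 to 0.241. Such deviations sum to 0 within each group and so constrain one another. They cannot settle whether the replicate letters pair the samples. With the letter as a replicate block, 1737 genes were higher and 2603 lower, 4 chaperones were higher and 27 lower, and the chaperone median was −0.28. Dnaja2, Dnajc1 and Dnajc4 lost their calls under the block. Dim genes, near the array medians, are limited by signal over background.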

Other observations

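The endoplasmic reticulum relatives that the symbol choice leaves out were mostly lower as well, at their brightest probe sets on the deposited scale. Of the 5 tested, 4 were lower in GFP_plus and 0 higher, with a median of −0.32 on the deposited scale and 0.21 with ribosomal centring. On the deposited scale 27.6% of all genes were lower and 21.0% higher. Dnajc3, which inhibits the stress kinase PERK, was 9.67 ± 0.08 in GFP_plus and 10.14 ± 0.14 in GFP_min (−0.48, limma adjusted p = 0.00144). Dnajb11, a partner of BiP, gave −0.44. BiP itself, Hspa5, gave −0.32, but another of its probe sets was higher in GFP_plus and passed (0.64). Dnajb9 was 8.47 in GFP_plus and 8.71 in GFP_min and did not pass. Of the heat shock transcription factors and their binders, only Hsbp1 was bright enough to test, at 10.10 ± 0.02 in GFP_plus and 10.24 ± 0.03 in GFP_min (−0.14, adjusted p = 0.0864).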
